A study of Mus musculus with 96 samples.

Results

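Collagen chains are the genes whose symbol in the expression table consists of Col, a number, the letter a and a number, such as Col1a1 and Col4a2. Of 20155 genes with values, 44 were collagen chains, and all 44 were followed here in 2 tissues of the same mice. Male C57BL/6N mice, bought at 4 weeks of age, were fed either a chow diet (CD, LabDiet) or a high-fat diet (HFD, Research Diets D12492, with 60% fat) and sampled after 4, 8, 12, 16, 20 or 24 weeks of diet. Each diet and time point had 4 mice, giving 24 mice per diet and, from 48 mice in all, 48 islet and 48 liver libraries. Islets are the hormone-secreting cell clusters of the pancreas, and they were freed with collagenase P, an enzyme mixture that digests collagen, separated on a gradient and picked by hand. Liver was taken from the same region of each animal and frozen. The labels list neither a transgene nor a deletion for any group. Since mice of 1 week were of 1 age, week of diet, age and any batch of collection or sequencing cannot be told apart, whereas the diets were compared within weeks.

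A collagen molecule is a rope of intertwined chains, and each chain repeats a triplet of residues that opens with glycine, the smallest amino acid. Fibrillar collagens such as types I, III and V assemble into the cables of scars and connective tissue, type IV forms the sheet-like net of basement membranes under endothelium and epithelium, type VI forms beaded filaments beside cells, and types XV and XVIII (multiplexins) sit at basement membranes. In liver, hepatic stellate cells and portal fibroblasts are the known main source of fibrillar collagen in fibrosis. In islets, the basement membrane is made largely by the endothelial cells of the capillaries. The 44 chains comprised 11 fibrillar, 9 fibril-associated, 6 basement membrane, 6 type VI family, 4 transmembrane, 3 short-chain and 2 multiplexin chains and 3 others.

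In the coding sequence, the fibrillar chains stand apart by the length of their longest run of the repeat and the basement membrane chains by their number of runs. The ranges of most other classes overlapped. The following stretches are shown because they carry the repeat of the chains on which most results turn. They are 21 codons each of the coding transcript (GENCODE M21, GRCm38), with the GG that opens each glycine codon of the repeat in capitals.
Col1a1, codons 168 to 188: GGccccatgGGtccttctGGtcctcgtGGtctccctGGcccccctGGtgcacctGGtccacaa
Col4a1, codons 151 to 171: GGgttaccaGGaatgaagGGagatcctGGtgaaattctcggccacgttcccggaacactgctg
Col18a1, codons 1031 to 1051: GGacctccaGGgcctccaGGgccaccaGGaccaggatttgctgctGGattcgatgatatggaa
In Col1a1 the repeat ran on for 338 triplets. The longest runs of Col1a2 and Col3a1 had 339 and 344 triplets, and those of the 11 fibrillar chains ranged from 216 to 344. In Col4a1 the longest run had 40 triplets and ended inside the stretch shown, and the 6 basement membrane chains had 22 to 27 separate runs of at least 5 triplets. Col18a1 had a longest run of 30 triplets, whose end is also shown. The last capitals in its stretch mark a single glycine codon after that end.

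Expression was measured by sequencing poly(A) RNA, and the table gives fragments per kilobase of transcript per 1000000 mapped (FPKM), which allows levels of different chains to be compared per length. Read counts were not part of the table, so the depth behind a value is unknown here. The tissue labels were borne out by defining genes. Ins1 and Ins2 together made up 53.7% to 75.1% of all FPKM in islet libraries and at most 0.556% in liver, and the summed level of 9 hepatocyte markers was 41248 to 90949 FPKM in liver and 253 to 1069 in islets. In islets this sum was mostly Ttr (median 782 FPKM, 238 to 1050), whereas Alb, Apoa1 and Cps1 had medians of 0.84, 0.86 and 0.02. The liver libraries CD306 and CD407 had the highest insulin shares (0.556% and 0.382%). The summed level of 5 fibrillar chains (Col1a1, Col1a2, Col3a1, Col5a1 and Col5a2) was the highest of its diet in livers HFD517 and CD502 and the lowest on HFD in HFD217, so that results on liver are also given without these 5 mice. Digestive enzymes marked exocrine tissue among the islets, since the sum of 12 acinar markers was 6444 to 157625 FPKM in CD and 4293 to 54089 in HFD islets. In whole tissue, a change in the number of cells of a type and a change in RNA per cell cannot be told apart.

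Most collagen chains were low in both tissues. At 1 FPKM or more in at least 4 libraries, 21 chains were found in islets and 19 in liver, of which 17 were in both. Col6a6, Col9a2, Col11a2 and Col20a1 reached this level in islets alone, and Col5a1 and Col12a1 in liver alone. The remaining 21 chains reached it in neither tissue. These were Col2a1, Col7a1, Col10a1, Col11a1, Col17a1, Col22a1 to Col26a1, Col28a1, the 4 basement membrane chains Col4a3 to Col4a6, Col6a4, Col6a5, Col8a1, Col8a2, Col9a1 and Col9a3. The highest value among them was 1.05 FPKM for Col28a1 in 1 islet library. None is discussed further, apart from the gene arrangement of Col4a3 to Col4a6.

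**Figure D1:**
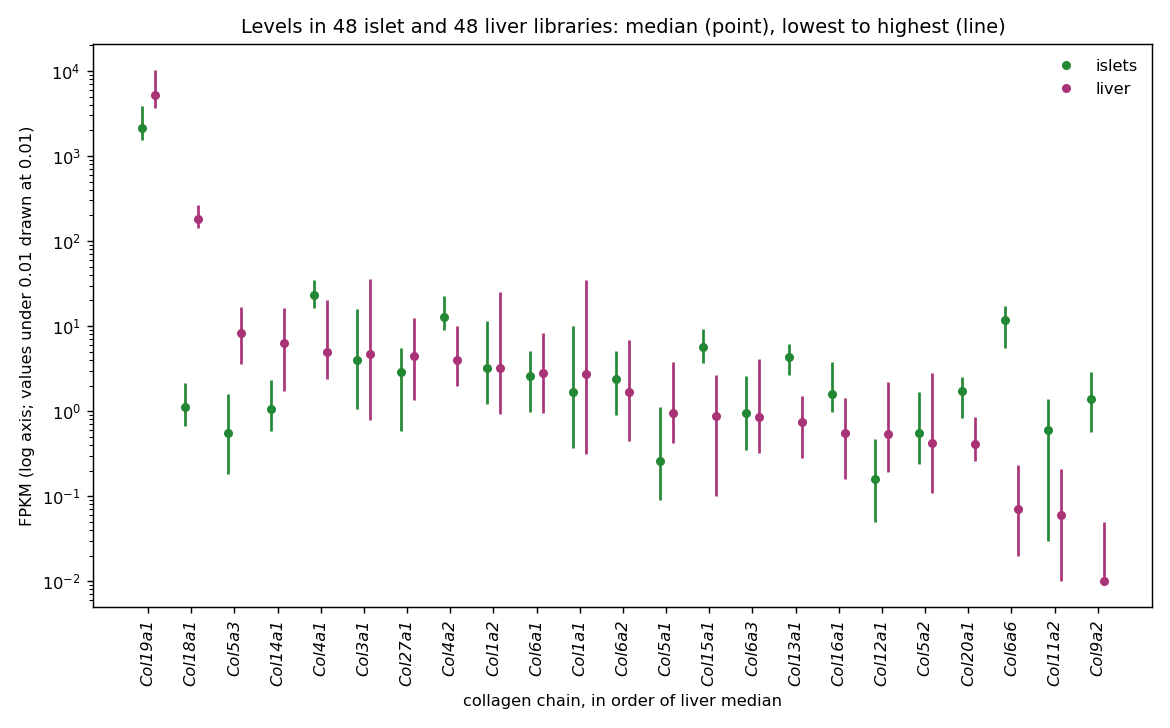
Level of the 23 collagen chains that reached 1 FPKM in at least 4 libraries of a tissue, in FPKM on a log axis, with the median (point) and range (line) of 48 islet libraries (green) and 48 liver libraries (purple), ordered by the liver median. Col19a1 and Col18a1 stand at the left, and Col18a1 shows the widest gap between tissues (medians 183 in liver and 1.11 in islets).

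Col19a1, a fibril-associated chain, had by far the highest values, with a median of 2121 FPKM (1551 to 3863) in islets and 5290 (3703 to 10399) in liver, and these cannot be read as the level of this collagen. The table places the gene at chr1:24257683-24614118 on the minus strand, whereas GENCODE M21 ends it at 24587472, so that the span holds 26646 bases beyond that end. On its other side, the span also reaches past the annotated gene, which begins at 24261890. The span overlaps 6 pseudogenes beyond 24587472, of which 5 match mitochondrial transcripts. The copies of mt-Nd4 (876 bases), mt-Nd4l (294 bases) and mt-Co3 (783 bases) were identical over their whole length, that of mt-Nd3 (345 bases) differed at 1 base, and 145 bases of a copy of mt-Atp6 lay inside the span. To show how alike such copies are, the 60 bases that open both the pseudogene Gm10925 and mt-Atp6 are given, although this end of Gm10925 lies beyond the span.
Gm10925 and mt-Atp6: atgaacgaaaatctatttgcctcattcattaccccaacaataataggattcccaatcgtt
The table held 0 mitochondrial genes under their own names. Fragments of mitochondrial RNA can therefore not be told apart from this span, and whether they make up the value was not tested. Col19a1 is left out of all sums below, but it is kept in the counts of chains tested.

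Leaving out Col19a1, the summed collagen level was 88.0 FPKM (median, 62.2 to 155) in islets and 240 (175 to 363) in liver, but the makeup was different. In liver, Col18a1, the multiplexin whose C-terminal fragment is endostatin, had 183 FPKM (142 to 263) and made up 77.9% of the sum (median, 49.2% to 87.9%). The next chains in liver were Col5a3 (median 8.31), a fibrillar type V chain, Col14a1 (6.38), which binds the surface of fibrils, Col4a1 (4.90), Col3a1 (4.66) and Col27a1 (4.50), and the ranges of these 5 overlapped. In islets, the type IV chains Col4a1 (median 23.2 FPKM, 16.1 to 35.2) and Col4a2 (12.9, 8.94 to 22.8) together made up 40.9% of the sum, against 3.64% in liver. They were followed by the type VI family chain Col6a6 (11.6, 5.56 to 17.2), the multiplexin Col15a1 (5.73, 3.67 to 9.14) and the transmembrane chain Col13a1 (4.35, 2.63 to 6.13).

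The level of a chain in islets was compared with that in liver of CD mice by limma on log2(FPKM + 1), with 1 mean per tissue, diet and week. Of 23 chains tested, 13 were higher in islets, where 66.5% of all genes tested were higher, and 7 were lower, against 28.5% of all genes. Since Col6a6, Col9a2, Col11a2 and Col20a1 reached 1 FPKM in islets alone and Col5a1 and Col12a1 in liver alone, these 6 entered the test through 1 tissue, and the counts are a description of the chains that could be tested. The median of all genes tested was 0.64 higher in islets on this log2 scale, and the values below are given as fitted. Col6a6 differed most among the higher chains, by 3.59 ± 0.06 (SE). It was at most 0.23 FPKM in any liver. Col4a1 was higher by 2.33 ± 0.07, Col4a2 by 1.81 ± 0.07, Col15a1 by 1.78 ± 0.07, Col13a1 by 1.56 ± 0.05 and Col9a2 by 1.48 ± 0.04. In the other direction, the log2 difference was -6.51 ± 0.05 for Col18a1 (adjusted p = 9.35e-91), -2.49 ± 0.10 for Col5a3 and -1.30 ± 0.09 for Col14a1. Col1a1, Col3a1 and Col6a1 did not pass the test (adjusted p = 0.131, 0.0698 and 0.137), with log2 differences of 0.27 ± 0.17, 0.33 ± 0.17 and 0.16 ± 0.11.

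HFD livers held more fibrillar, basement membrane and type VI collagen RNA than CD livers, while Col18a1 did not pass the test. Averaged over the 6 time points, 14 of the 19 chains tested were higher in HFD liver, where 35.8% of all 10879 genes tested were higher, and 1 was lower, against 6.78% of all genes. Col19a1, whose value is in doubt, is among the 14. The median difference of the 19 chains was 0.42 on the log2(FPKM + 1) scale, and that of all genes tested was 0.08. Col6a3, Col12a1, Col5a1 and Col5a2 are low and reached 1 FPKM in more HFD than CD libraries. Col16a1 reached it in HFD livers alone (at most 0.81 FPKM in CD) and so entered the test through the group where it was high. The count is therefore a description of the chains that could be tested. Without the 5 mice named above, a choice made after the values were seen, 12 of 17 chains were higher and 1 lower. HFD517, CD502 and HFD217 were picked by their fibrillar sum, so that fit is not an independent check. The shares of all genes in that fit are not given here.

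The fibrillar chains of types I and III moved most. Col1a1, the major chain of type I collagen, had 0.31 to 12.3 FPKM (median 1.22) in 24 CD livers and 0.77 to 35.0 (median 5.97) in 24 HFD livers. Thus, the ranges overlapped over all weeks together, and the highest CD value belonged to CD502 and the lowest HFD value to HFD217. The mean log2 difference was 1.36 ± 0.20 (SE, adjusted p = 8.36e-07, limma). Col1a2, its partner in the type I trimer, had 0.92 to 9.22 FPKM (median 1.87) in CD and 1.32 to 25.0 (median 6.86) in HFD livers, a difference of 1.16 ± 0.16 (adjusted p = 2.51e-07). Col3a1, the single chain of type III collagen, had 0.78 to 14.7 (median 2.81) in CD and 2.17 to 36.0 (median 10.6) in HFD livers, a difference of 1.31 ± 0.19 (adjusted p = 7.16e-07). The type V chains Col5a1 and Col5a2, which set fibril diameter, were higher by 0.42 ± 0.07 and 0.41 ± 0.07. The sum of Col1a1, Col1a2, Col3a1, Col5a1 and Col5a2 per library, which leaves out the fibrillar chains Col5a3 and Col27a1, was 6.97 FPKM (median, 2.55 to 39.2) in CD and 25.6 (5.06 to 102.5) in HFD livers.

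The levels of Col1a1 at single weeks were as follows. At week 4, Col1a1 had 1.23, 2.61, 2.63 and 1.18 FPKM in CD and 2.46, 1.94, 2.15 and 1.60 in HFD livers, and the groups overlapped. By week 8, 3 HFD livers were at 7.25, 10.3 and 8.31 FPKM, whereas the fourth, HFD217, was at 0.77 and the CD livers were at 1.15, 1.21, 1.53 and 1.41. Week 12 gave 3.47, 0.98, 0.31 and 0.55 in CD and 8.14, 7.32, 3.77 and 5.42 in HFD livers, and every HFD liver was above every CD liver. At week 16 the groups were again apart, with 0.61, 0.59, 0.98 and 1.03 in CD and 5.62, 5.76, 6.18 and 6.97 in HFD livers (0.803 ± 0.235 and 6.13 ± 0.607, SD, n = 4). Week 20 was the most scattered, with 0.96, 12.3, 4.34 and 3.56 in CD and 14.6, 6.49, 35.0 and 5.30 in HFD livers, where CD502 was above 2 of the HFD livers. At week 24, CD livers had 2.81, 1.25, 2.05 and 0.52 and HFD livers 4.01, 4.12, 8.56 and 11.1, without overlap.

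**Figure D2:**
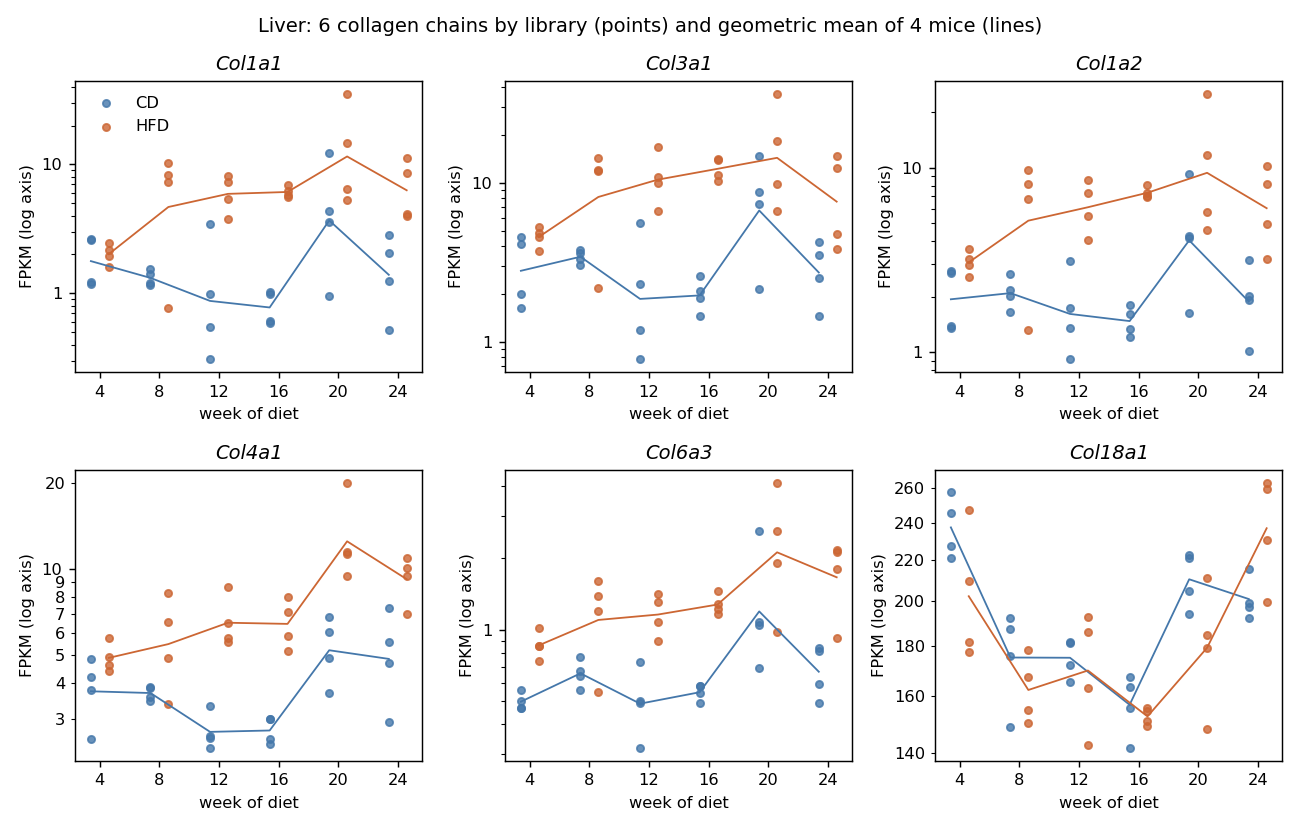
FPKM on a log axis of 6 collagen chains in liver at each week of diet, for CD (blue) and HFD (orange), with points for the 4 mice of a group and lines through their geometric means. HFD points lie above CD points for Col1a1, Col3a1, Col1a2, Col4a1 and Col6a3 at week 16, whereas the Col18a1 points of both diets overlap at every week.

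When each week was tested on its own, 0 of 13 chains passed at week 4, where 0.0506% of all genes did, and 0 of 13 at week 8, against 7.49% of all genes. Unadjusted p-values under 0.05 were found for 3 and 4 chains in these weeks. The shares of all genes at that threshold are not given here, so these counts are not a result about the chains. Without HFD217, the count of week 8 was 7, and the share of all genes in that fit is not given here. At week 12, 7 of 13 chains were higher in HFD liver, against 9.42% of all genes, and at week 16, 9 of 13 were, against 6.74%. Col5a1 at week 12 and Col6a3 at week 16 reached 1 FPKM in HFD livers alone, so that they entered the test through the group where they were high, and these counts are a description of the chains that could be tested. At week 20 the count was 1 of 15, against 1.73% of all genes, and at week 24 it was 1 of 15, against 0.650%. Passing in some weeks and not in others does not show that the diet effect differed between weeks. The contrast of the early weeks (4, 8 and 12) against the late weeks (16, 20 and 24) tests that. It was passed by 0 of 19 chains, against 0.175% of all genes. An unadjusted p under 0.05 was found for 2 chains, and the share of all genes at that threshold is not given here.

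At week 16, Col1a1 was higher by 1.99 ± 0.11 (adjusted p = 9.58e-06) and Col1a2 by 1.75 ± 0.10 (adjusted p = 9.58e-06). Col3a1 had 1.87, 1.45, 2.59 and 2.08 FPKM in CD and 11.2, 10.3, 14.01 and 13.8 in HFD livers of that week, a log2 difference of 2.16 ± 0.14 (adjusted p = 2.22e-05). The 3 chains were thus each higher in every HFD liver than in any CD liver. At week 12, the differences were 1.92 ± 0.43 for Col3a1, 1.75 ± 0.39 for Col1a1 and 1.42 ± 0.26 for Col1a2, with larger standard errors than at week 16. The number of chains past the test at week 12 was 2 without CD307 and 11 without CD304.

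The type I pair was not in constant proportion. The ratio of Col1a1 to Col1a2 FPKM was 0.675 (median, 0.337 to 1.33) in CD and 0.972 (0.583 to 1.40) in HFD livers. In islets it was 0.508 (0.248 to 0.871) and 0.486 (0.187 to 0.731). These ratios are descriptions, and their difference was not tested. One promoter of this group is shown for the reader, since the gene moved with its neighbours in the fibril. It is a stretch of 60 bases (RefSeq, GRCm38.p6, plus strand, chr1:45311388-45311447), with the letters TATAAA in capitals. The stretch lies upstream of the annotated start of Col3a1 at 45311538 and does not reach it.
Col3a1 promoter: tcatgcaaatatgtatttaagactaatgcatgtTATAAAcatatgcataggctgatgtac
TATAAA was present on either strand in 5 of 38 collagen windows (13.2%) of 300 bases around the start, and in 13.6% of 32851 windows of all genes. CCAAT was present in 13 of 38 (34.2%) and 37.4%, and GGGCGG in 23 of 38 (60.5%) and 35.7%. The windows covered 35 of the 44 chains. The median GC content was 59.8% in collagen windows and 52.7% in all, which bears on GGGCGG.

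Basement membrane chains were also higher in HFD liver, with a smaller scatter. Col4a1 had 2.38 to 7.31 FPKM (median 3.63) in 24 CD livers and 3.39 to 20.1 (median 6.77) in 24 HFD livers. Its mean difference of 0.79 ± 0.08 had the smallest adjusted p of all 19 chains (1.1e-09). Col4a2 had 2.00 to 5.63 (median 3.04) in CD and 2.97 to 10.1 (median 5.01) in HFD livers, a difference of 0.60 ± 0.07 (adjusted p = 3.57e-08). Week 20 and week 24 each had 1 chain past the test, and both were of this pair. At week 20, Col4a1 had 3.68, 6.05, 4.88 and 6.80 FPKM in CD and 11.5, 11.3, 20.1 and 9.46 in HFD livers, a difference of 1.12 ± 0.23 (adjusted p = 0.0361). At week 24, Col4a2 had 2.63, 3.04, 4.13 and 2.03 in CD and 5.61, 6.5, 7.48 and 7.71 in HFD livers, a difference of 1.00 ± 0.16 (adjusted p = 0.0249). In both cases, every HFD liver was above every CD liver. The call of Col4a1 at week 20 and that of Col4a2 at week 24 were each lost in some fits with 1 mouse left out, where the number of chains past the test ranged from 0 to 3 at week 20 and from 0 to 6 at week 24.

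Col4a1 and Col4a2 lie head to head on chromosome 8, and their first bases are shown because the transcripts start so close that they overlap. Col4a1 starts at 11312826 on the minus strand and Col4a2 at 11312805 on the plus strand. The 30 bases at chr8:11312801-11312830 (RefSeq, GRCm38.p6, plus strand) are given with the 22 bases that belong to both genes in capitals.
Col4a1 and Col4a2 starts: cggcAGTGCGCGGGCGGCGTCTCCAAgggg
The ratio of Col4a1 to Col4a2 was 1.76 (median, 1.42 to 2.18) in islets and 1.28 (0.837 to 2.26) in liver. The other type IV pairs lie head to head as well, Col4a4 with Col4a3 on chromosome 1 and Col4a6 with Col4a5 on chromosome X, and all 4 stayed under 1 FPKM in every library.

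Type VI and fibril-associated chains completed the group. Col14a1 had 1.72 to 8.66 FPKM (median 4.86) in CD and 4.45 to 16.4 (median 10.0) in HFD livers, a mean difference of 0.80 ± 0.11 (adjusted p = 2.82e-07). At week 4 it already had 1.72, 4.04, 5.40 and 2.22 in CD and 6.84, 7.68, 9.91 and 6.69 in HFD livers, without overlap, but the adjusted p was 0.155. Col6a1, Col6a2 and Col6a3, the chains of the classical type VI trimer, were higher by 0.65 ± 0.11, 0.61 ± 0.12 and 0.49 ± 0.08. At week 16, Col6a1 had 1.54, 1.65, 1.57 and 2.04 FPKM in CD and 3.84, 4.82, 4.18 and 3.89 in HFD livers, a difference of 0.94 ± 0.10 (adjusted p = 0.000505). Col6a3 had 0.58, 0.54, 0.58 and 0.49 in CD and 1.22, 1.46, 1.28 and 1.16 in HFD livers, a difference of 0.56 ± 0.08 (adjusted p = 0.00309, tested only because its HFD values reached 1 FPKM). In each case, the groups were fully apart. Col12a1 and Col16a1, both fibril-associated, were higher by 0.33 ± 0.06 and 0.31 ± 0.05 in the mean over weeks, and Col16a1 was tested only because its HFD values reached 1 FPKM. Col19a1 passed as well (0.13 ± 0.04, adjusted p = 0.0179), with the doubt about its span given above.

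The chains that did not rise included the most abundant ones. Col18a1 had 142 to 258 FPKM (median 192) in CD and 143 to 263 (median 179) in HFD livers, and the mean log2 difference was -0.07 ± 0.04 (adjusted p = 0.191). With the other chains higher, its median share of the collagen sum was 82.1% in CD and 69.6% in HFD livers. Col5a3 (-0.06 ± 0.12, adjusted p = 0.729), Col15a1 (0.01 ± 0.07, adjusted p = 0.887) and Col27a1 (0.24 ± 0.14, adjusted p = 0.162) did not pass the test either. Col13a1, a transmembrane chain, was the one that fell, from 0.36 to 1.48 FPKM (median 0.90) in CD to 0.28 to 1.5 (median 0.615) in HFD livers, by -0.19 ± 0.06 (adjusted p = 0.00465). At week 4 its mean was instead 0.755 FPKM in CD and 1.20 in HFD livers, with overlap, and at all other weeks the HFD mean was the lower one. Col5a3 is therefore a type V chain whose diet difference was -0.06, while Col5a1 and Col5a2 of the same type were higher.

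**Figure D3:**
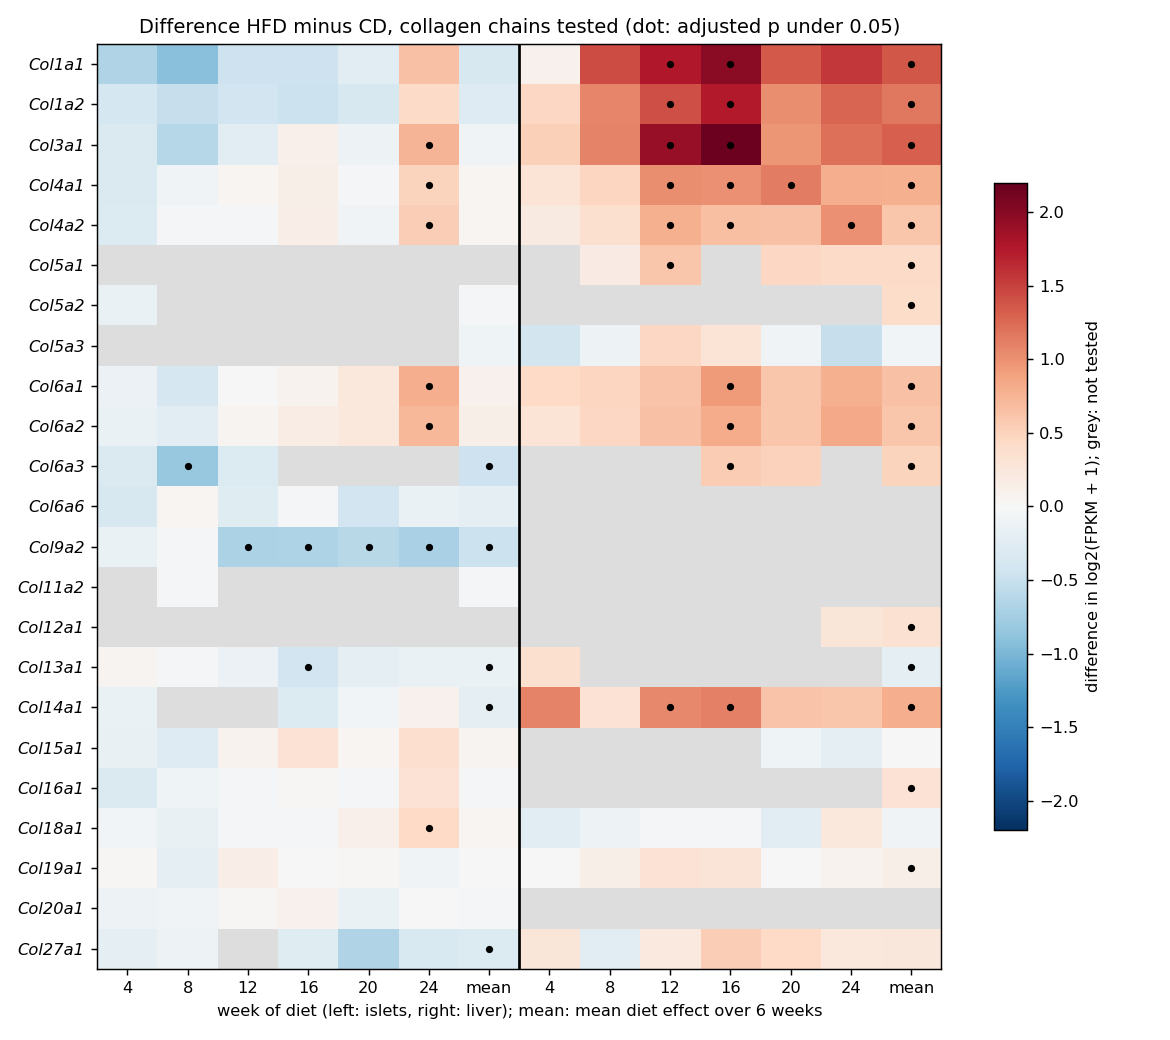
Difference between HFD and CD in log2(FPKM + 1) for the collagen chains tested (lines of the map) at each week and in the mean over weeks (columns), in islets on the left and liver on the right, with a dot where the adjusted p was under 0.05 and grey where the chain was not tested. Liver columns of weeks 12 and 16 are mostly red (7 and 9 chains with a dot), and islet columns hold 0 to 2 dots up to week 20 and 7 at week 24.

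Genes that act on collagen were counted from lists of its pathway. In liver, averaged over weeks, 7 of 10 prolyl and lysyl hydroxylases and related enzymes were higher and 0 lower, among them P4hb (0.31 ± 0.06), P4ha1 (0.26 ± 0.10) and P4ha2 (0.25 ± 0.06), which hydroxylate prolines of the chains. Of the chaperones and export factors, 7 of 11 were higher and 1 lower, and Serpinh1 (HSP47, the collagen chaperone) changed most, by 0.89 ± 0.12. Of the cleavage and crosslinking enzymes, 5 of 6 were higher, including Tgm2 (0.70 ± 0.09), Pcolce (0.52 ± 0.10) and Loxl2 (0.40 ± 0.07), and Bmp1, a propeptide protease, fell by 0.16. Of the proteins that regulate fibrils, 9 of 11 were higher and 0 lower, with Postn (0.82 ± 0.12), Sparc (0.79 ± 0.12) and Prelp (0.61 ± 0.09) at the top. Laminins and nidogens, the partners of type IV collagen, had 6 of 9 higher (Nid1 0.70 ± 0.09) and 1 lower (Lama3). Degradation had 7 of 9 higher and 0 lower, including both the protease Mmp12 (1.39 ± 0.15) and the inhibitor Timp1 (0.74 ± 0.11). Collagen receptors had 2 of 3 higher, Lair1 and Itga1, and 5 of 12 genes of TGF-beta signalling were higher, with 0 lower. Each of these shares stands beside 35.8% of all genes higher.

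Markers of several cell types moved with these results. Of 12 stellate and fibroblast markers tested in liver, 9 were higher in HFD and 0 lower, where 35.8% of all genes were higher and 6.78% lower, including Rgs5 (0.86 ± 0.10), Dpt (0.58 ± 0.09) and Pdgfrb (0.49 ± 0.06). The summed level of the 14 markers on the list was 24.3 FPKM (median, 13.5 to 37.1) in CD and 36.3 (21.8 to 54.4) in HFD livers, and 2 of them stayed under 1 FPKM in every liver library. Macrophage markers had 7 of 9 higher, including Trem2 (1.09 ± 0.10), and 1 lower (Cd163), and their sum was 91.1 (48.5 to 150) in CD and 127 (59.7 to 282) in HFD livers. Endothelial markers had 1 of 10 higher, Plvap (0.63 ± 0.11), and 0 lower. Ductal markers had 3 of 6 tested higher, Krt8, Krt18 and Spp1, and 0 lower. Krt8 and Krt18 had medians of 126 and 134 FPKM over all liver libraries, against 0.80 for Krt19, 0.31 for Krt7 and 0.58 for Epcam. The summed level of the list therefore rests mostly on Krt8 and Krt18 and cannot be read as the amount of duct cells. The ductal sum was 267 FPKM (median, 187 to 442) in CD and 385 (216 to 1005) in HFD livers, with the highest value in HFD517. Hepatocyte markers had 2 of 9 lower and 0 higher. The part of these cells in the collagen differences was not tested.

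In HFD islets, averaged over weeks, 5 of 21 chains were lower and 0 were higher (Col9a2, Col6a3, Col27a1, Col14a1 and Col13a1 fell). Of all genes tested, 22.0% were lower, 16.6% were higher and 38.6% changed in either direction, so that the share of lower chains was near that of all genes and is not a result about the chains as a group. The median difference of the 21 chains was -0.05 and that of all genes -0.01. This result depends on the scale. When Ins1 and Ins2 were taken out of the library total, which moved the median gene up by 0.15, 7 chains were higher and 6 lower of 29 tested. The shares of all genes in that fit are not given here, so these counts are not a result about the chains.

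On the log2(FPKM + 1) scale, which understates fold changes of low chains, Col9a2 changed most. This chain belongs to the fibril-associated type IX collagen known from cartilage. It had 1.13 to 2.89 FPKM (median 1.86) in 24 CD islet libraries and 0.57 to 1.93 (median 0.92) in 24 HFD libraries, and it was at most 0.05 FPKM in liver. Its mean difference was -0.48 ± 0.05 (adjusted p = 7.81e-10). At week 4, the level was 1.77 ± 0.17 in CD and 1.503 ± 0.30 in HFD islets (SD, n = 4), and at week 8 it was 1.36 ± 0.09 and 1.33 ± 0.19, so that the groups overlapped at both. From week 12 on, every HFD library was below every CD library. Week 12 had 1.13, 2.36, 2.25 and 1.87 FPKM in CD and 0.62, 0.95, 0.75 and 0.74 in HFD islets (log2 difference -0.70 ± 0.13, adjusted p = 0.00103). Week 16 had 1.52, 1.56, 1.30 and 2.59 in CD and 0.66, 0.74, 0.57 and 0.78 in HFD islets (-0.68 ± 0.12, adjusted p = 0.00297). At these 2 weeks every HFD value was under 1 FPKM, so that Col9a2 entered the test through the CD libraries, where it was high. The sum of acinar markers was also apart at these 2 weeks. It was 65341 to 157625 FPKM in CD and 10108 to 47489 in HFD islets at week 12. At week 16 it was 37036 to 68388 in CD and 6113 to 19595 in HFD islets. Its ranges overlapped at weeks 4, 8, 20 and 24, and its part in the Col9a2 difference was not tested. Week 20 had 1.85, 2.19, 2.13 and 2.89 in CD and 1.57, 1.32, 0.84 and 0.86 in HFD islets (-0.61 ± 0.13, adjusted p = 0.0363), and week 24 had 2.63, 2.23, 2.23 and 1.52 in CD and 0.77, 0.89, 0.79 and 1.25 in HFD islets (-0.71 ± 0.12, adjusted p = 0.00187). The early difference minus the late one was 0.37 ± 0.10 (adjusted p = 0.034), and Col9a2 was the only 1 of 21 chains to pass this contrast, against 0.969% of all genes in that direction. Without week 4, a choice made after the values were seen, it did not pass.

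The other 4 lower chains were of several classes. Col6a3 had 0.64 to 2.56 FPKM (median 1.24) in CD and 0.35 to 1.41 (median 0.53) in HFD islets, a mean difference of -0.45 ± 0.06 (adjusted p = 5.02e-08). Its partners Col6a1 (0.10 ± 0.10) and Col6a2 (0.13 ± 0.10) did not pass the test. At week 8, Col6a3 had 1.63, 2.56, 1.76 and 1.95 in CD and 0.38, 1.41, 0.47 and 0.52 in HFD islets, fully apart, and the difference was -0.84 ± 0.17 (adjusted p = 0.0258). This call was lost without the filter on low FPKM, with median ratio scaling, with a minimum log2 difference of 1, without Ins1 and Ins2 in the total and without CD205, CD208, HFD211 or HFD213. Col27a1, a fibrillar chain, differed by -0.31 ± 0.07 (adjusted p = 0.000871), and Col14a1 by -0.21 ± 0.06 (adjusted p = 0.00764). Col13a1 differed by -0.14 ± 0.05 (adjusted p = 0.0112), and this sign was not kept without Ins1 and Ins2 in the total, where it was 0.0078. At week 16, Col13a1 had 4.15, 4.22, 4.16 and 4.58 FPKM in CD and 3.21, 2.87, 2.63 and 3.13 in HFD islets (-0.42 ± 0.08, adjusted p = 0.00411). The acinar sums of the diets were also apart at this week, and their part in this difference was not tested. Col1a1 (-0.35 ± 0.14, adjusted p = 0.0519) and Col1a2 (-0.28 ± 0.12, adjusted p = 0.0603) stayed just outside the threshold.

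Col27a1 varied more between weeks than between diets. In CD islets it had 4.69 ± 0.74 FPKM at week 8, 1.00 ± 0.15 at week 12 and 4.43 ± 0.60 at week 20 (SD, n = 4), and in HFD islets 4.24 ± 0.66, 0.66 ± 0.06 and 2.53 ± 1.04. The means of week 12 were thus below those of these other weeks in both diets, and the week cannot be told apart from its batch. In liver, Col27a1 was highest at week 8, with 9.81 ± 1.37 in CD and 8.50 ± 3.05 in HFD mice.

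By week, 0 of 19 chains passed in islets at week 4, where 0% of all genes did. An unadjusted p under 0.05 was found for 4 chains, and the share of all genes at that threshold is not given here. At week 8, 1 of 18 was lower, Col6a3, against 4.67% of all genes. At week 12, 1 of 16 was lower, Col9a2, against 2.35%. Week 16 had 2 of 17 lower, Col9a2 and Col13a1, against 5.15%, and week 20 had 1 of 17, Col9a2, against 3.21%. At weeks 4 to 20, 0 chains were higher in HFD islets past the test on this scale. Without Ins1 and Ins2 in the total, where the median gene shifted by 0.46 and 0.34, 7 chains were higher at week 12 and 7 at week 16. The shares of all genes higher in these fits are not given here, so these counts are not a result about the chains.

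At week 24, 6 of 17 chains were higher in HFD islets, against 6.57% of all genes, and 1 was lower, Col9a2, against 1.73%. They were chains of the basement membrane, of type VI and of type III. Col18a1 reached 1 FPKM in the HFD libraries alone and so entered the test through the group where it was high, and the count is a description of the chains that could be tested. Col6a1 had 1.69, 1.38, 1.19 and 1.41 FPKM in CD and 2.56, 4.18, 4.00 and 2.32 in HFD islets, a difference of 0.79 ± 0.14 (adjusted p = 0.00291). Col6a2 had 1.79, 1.38, 1.15 and 1.33 in CD and 3.07, 3.65, 3.43 and 2.02 in HFD islets (0.73 ± 0.13, adjusted p = 0.00277). Col3a1 had 2.13, 1.55, 1.60 and 2.14 in CD and 3.21, 4.82, 5.21 and 2.37 in HFD islets (0.74 ± 0.18, adjusted p = 0.0318). Every HFD library was above every CD library for these 3 chains. Col4a1 had 19.0, 18.4, 22.7 and 18.2 in CD and 25.4, 29.95, 34.8 and 22.0 in HFD islets (0.48 ± 0.12, adjusted p = 0.0295), where the lowest HFD value lay under the highest CD value. Col4a2 had 9.91, 9.37, 11.5 and 8.94 in CD and 13.5, 17.1, 19.5 and 11.1 in HFD islets (0.55 ± 0.15, adjusted p = 0.047), with the same overlap. Col18a1, low in this tissue, had 0.95, 0.83, 0.75 and 0.74 in CD and 1.27, 1.60, 1.70 and 1.33 in HFD islets (0.44 ± 0.10, adjusted p = 0.0128), without overlap. With 1 mouse left out, 4 to 9 chains passed at this week, and 9 of them did without HFD617.

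**Figure D4:**
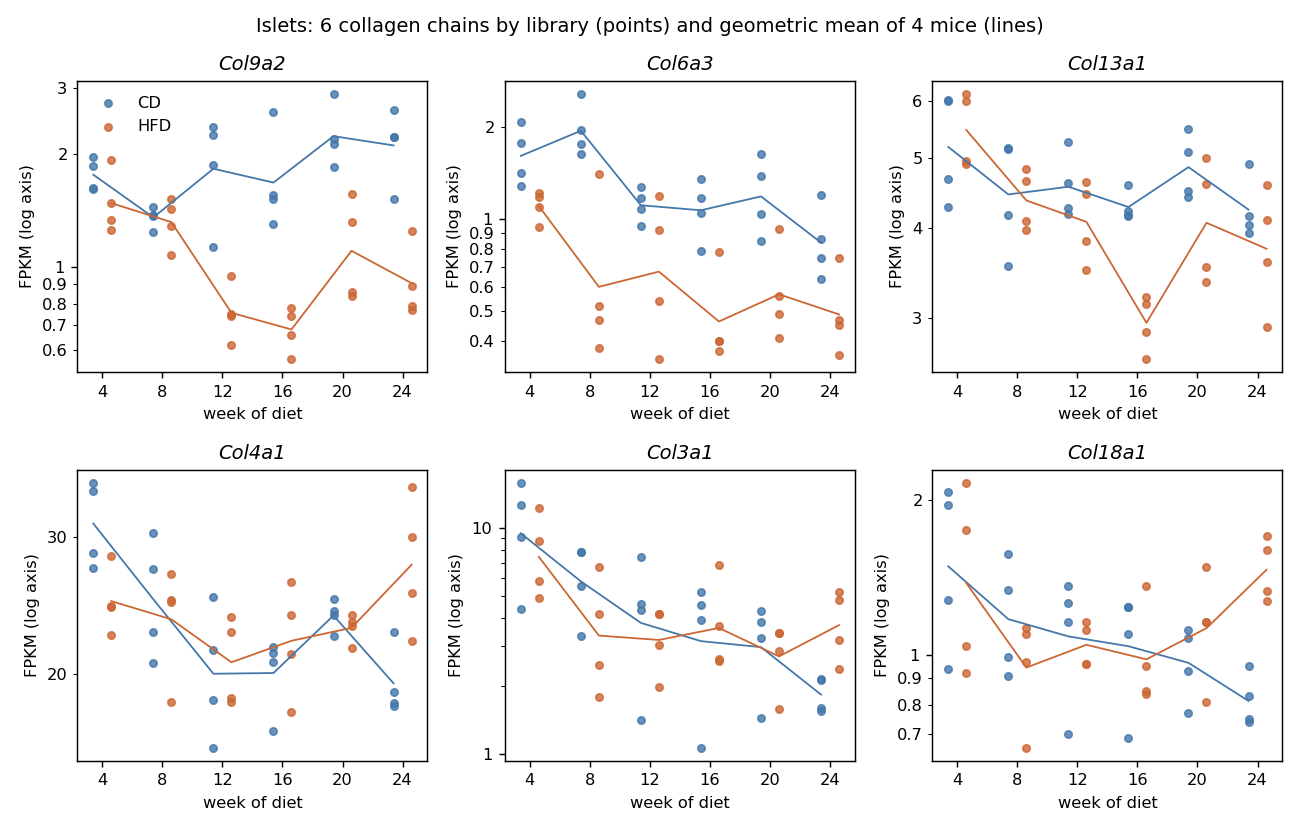
FPKM on a log axis of 6 collagen chains in islets at each week of diet, for CD (blue) and HFD (orange), with points for the 4 mice of a group and lines through their geometric means. Col9a2 points of the diets are apart from week 12 on, and the lines of Col4a1, Col3a1 and Col18a1 cross so that HFD is above CD at week 24.

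At week 24, markers of stroma and vessels also moved in islets. Of 9 stellate and fibroblast markers tested, 5 were higher in HFD islets, where 6.57% of all genes were higher and 1.73% lower, including the pericyte genes Pdgfrb (0.81 ± 0.13), Rgs5 (0.70 ± 0.12) and Cspg4 (0.49 ± 0.12), and Reln was lower. The sum of the list was 44.6 to 49.2 FPKM in CD and 61.0 to 88.1 in HFD islets, without overlap. Endothelial markers had 3 of 9 higher, Cdh5 (0.51 ± 0.11), Pecam1 and Plvap, and 0 lower, and their sum was 186 to 199 in CD and 205.4 to 248 in HFD islets. Of 12 acinar markers, 0 passed in either direction. Of the 9 T and B cell markers, Cd79a had the highest median over all islet libraries (6.98 FPKM, 2.49 to 18.8), against 0.03 for Cd3e. At week 24 the sum of these markers was 7.05 to 40.3 FPKM (median 24.0) in CD and 3.62 to 8.60 (median 6.00) in HFD islets, with 1 of 9 testable and 0 past the test. The CD islets CD606 and CD608 had 40.3 and 37.8, and also the highest sums of 5 lymph node stroma markers (11.7 and 12.3), which had a median of 6.74 in CD and 1.69 in HFD islets and of which 0 could be tested. The part of these cells in the rise of collagen chains was not tested.

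Over all weeks, the lists of the collagen pathway had members in both directions in islets. Each count stands beside 16.6% of all genes higher and 22.0% lower. Of 14 hydroxylases and related enzymes, 8 were higher and 1 lower, led by P3h2 (1.18 ± 0.05) and P4ha2 (0.43 ± 0.06). Of 11 chaperones and export factors, 0 were higher and 3 lower. Among the fibril regulators, Thbs1 (0.62 ± 0.09) and Ctgf (0.39 ± 0.09) were higher and Dcn (-0.84 ± 0.21) and Fbln1 (-0.35 ± 0.09) lower, of 11 tested. Of 12 basement membrane partners, Lama5 (0.55 ± 0.06) was higher and 4 were lower, including the perlecan gene Hspg2 (-0.38 ± 0.05). Of 5 cleavage and crosslinking enzymes, 1 was higher and 2 lower, including Tgm2 (-0.55 ± 0.09). Degradation had 1 of 6 higher (Mmp12) and 3 lower, receptors had 2 of 4 higher and 0 lower, and TGF-beta signalling had 3 of 16 higher and 8 lower. Stellate and fibroblast markers had 3 of 10 higher and 2 lower in the mean over weeks, acinar markers had 5 of 12 lower and 0 higher, and their part in the islet values was not tested.

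In CD mice, Col1a1, Col1a2, Col3a1 and Col5a2 of islets fell with time among the 7 fibrillar chains tested, while Col27a1 and Col11a2 rose and Col5a3 did not pass the test (adjusted p = 0.228). As a linear contrast over the 6 CD means, 13 of 21 chains fell, against 11.2% of all genes, and 3 rose, against 25.5% of all genes. Among CD islets, Col5a2 reached 1 FPKM at weeks 4 and 8 alone (at most 0.84 later), the weeks where it was high. The counts are therefore a description of the chains that could be tested. The 3 with the steepest slopes were the fibrillar chains Col3a1 (-0.34 ± 0.06 per 4 weeks on the log2(FPKM + 1) scale, adjusted p = 8.45e-05), Col1a1 (-0.33 ± 0.06, adjusted p = 5.56e-05) and Col1a2 (-0.28 ± 0.05, adjusted p = 5.57e-05). Col3a1 went from 4.39, 15.8, 9.14 and 12.7 FPKM at week 4 (mean 10.5 ± 4.89, SD) to 2.13, 1.55, 1.60 and 2.14 at week 24 (1.86 ± 0.32), and every mouse of week 24 was below every mouse of week 4. Col1a1 went from 3.49, 9.96, 5.01 and 7.07 to 1.26, 0.72, 0.98 and 0.80. The type VI chains Col6a1 (-0.19), Col6a2 (-0.17) and Col6a3 (-0.11), the type IV chains Col4a2 (-0.15 ± 0.02, adjusted p = 7.89e-07) and Col4a1 (-0.10 ± 0.02), and the multiplexins Col15a1 (-0.12) and Col18a1 (-0.08) fell too, as did Col5a2, Col14a1 and Col16a1. Col27a1 (0.08), Col9a2 (0.06) and Col11a2 (0.05) rose. The fall of Col4a1 in CD islets, from 31.4 ± 3.96 FPKM at week 4 to 19.6 ± 2.10 at week 24 (SD, n = 4), stood beside HFD means of 24.9 ± 2.49 at week 4 and 28.0 ± 5.53 at week 24.

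These slopes leaned partly on the first time point. Without week 4, 7 chains fell and 2 rose of 19 tested, and without week 12, 13 fell and 1 rose. Both are choices made after the values were seen, and the shares of all genes in these fits are not given here. Stromal genes moved alongside, since 7 of 10 stellate and fibroblast markers, 4 of 9 endothelial markers, 6 of 11 fibril regulators and 7 of 12 basement membrane partners had a negative slope past the test, against 11.2% of all genes, and 1 stellate marker had a positive one. Their part in the collagen slopes was not tested, and in these mice time cannot be told apart from the batch of a week.

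**Figure D5:**
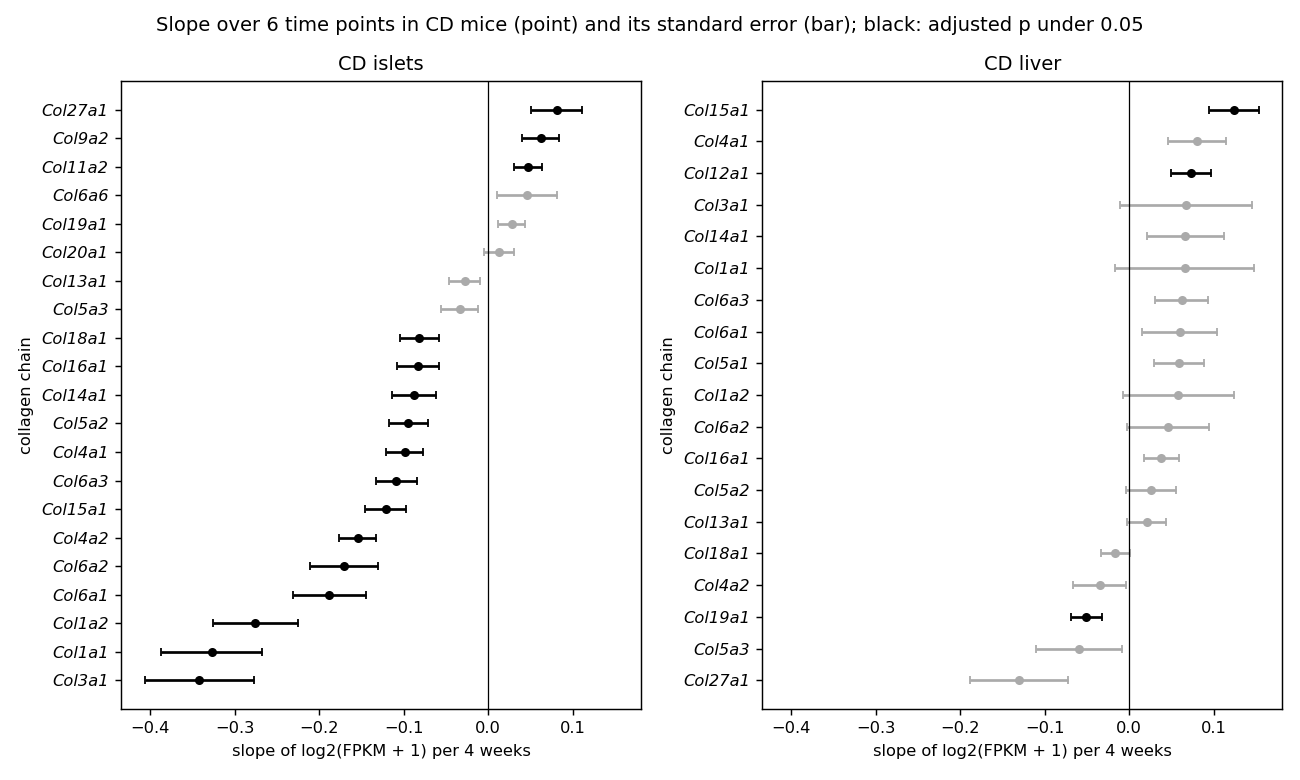
Slope of log2(FPKM + 1) per 4 weeks over the 6 time points in CD mice for each collagen chain tested (point) with its standard error (bar), in islets (left) and liver (right), black where the adjusted p was under 0.05. Of 21 islet chains, 13 lie below 0 in black, whereas in liver 2 lie above and 1 below.

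In CD livers, 2 of 19 chains rose over the weeks, against 15.7% of all genes, and 1 fell, against 12.6%. Among CD livers, Col12a1 reached 1 FPKM at week 24 alone (at most 0.75 before), and it entered the test through these and HFD livers. The counts are therefore a description of the chains that could be tested. The difference of the slopes between liver and islets was not tested. Col15a1 rose by 0.12 ± 0.03 per 4 weeks (adjusted p = 0.00173), from 1.09 ± 0.48 FPKM at week 4 to 2.05 ± 0.56 at week 24 (SD, n = 4), with 0.313 ± 0.251 in between at week 12. Col12a1 rose by 0.07 ± 0.02 (adjusted p = 0.0211). Col19a1 fell by 0.05 (-0.05 ± 0.02, adjusted p = 0.0328), with the doubt about its span given above. Since the slope is a straight line, it does not describe a dip such as that of Col15a1.

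The diet effect on collagen chains differed between the tissues of the same mice. The mean diet effect in liver minus that in islets was positive and past the test for 16 of 23 chains, and for 35.5% of all genes. Col19a1, whose value is in doubt, is among the 16. The differences were 1.71 for Col1a1, 1.45 for Col1a2, 1.38 for Col3a1, 1.01 for Col14a1, 0.95 for Col6a3 and 0.75 for Col4a1. Col6a3 was thus past the test in opposite directions in the 2 tissues, at 0.49 in liver and -0.45 in islets, and so was Col14a1, at 0.80 and -0.21. For Col9a2, the difference was 0.47, with the chain at or near 0 in liver. The median of all genes tested was 0.09 in this contrast and that of the 23 chains 0.47. Without the 5 mice, 16 chains passed, and with a term for each mouse 16 also passed. The shares of all genes in these fits are not given here. This contrast was not fitted without Ins1 and Ins2 in the total, on which the islet counts depended.

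Chains that share a molecule varied together between mice. With diet and week means subtracted, 8 pairs were correlated over 48 mice in each tissue on log2(FPKM + 1), and 15 of 16 relations passed a two-sided permutation test adjusted over the 16. Values in a library share its total. Col1a1 and Col1a2 had r = 0.957 (Spearman's rho 0.955) in islets and 0.976 (0.956) in liver, Col4a1 and Col4a2 had 0.932 (0.925) and 0.882 (0.851), Col6a1 and Col6a2 had 0.939 (0.896) and 0.949 (0.930), and Col5a1 and Col5a2 had 0.915 (0.931) and 0.764 (0.626). Col1a1 and Col3a1, which build the same fibrils, had 0.928 (0.891) and 0.964 (0.943). For most of these the adjusted permutation p was 1.45e-05, from the smallest p of 1e-05 that 100000 resamples can give. Col6a3 followed Col6a1 less closely in islets (r = 0.480, rho 0.505, adjusted permutation p = 0.00105) than in liver (0.814, rho 0.783), but the difference was not tested.

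Chains of different assemblies were correlated as well. Col1a1 and Col4a1 had r = 0.652 (rho 0.652) in islets and 0.665 (0.589) in liver, with adjusted permutation p-values of 8e-05 and 0.00024. Col1a1 and Col18a1 had 0.764 (0.780) in islets. In liver, where Col18a1 was abundant, the pair had r = 0.197 (rho 0.181) and did not pass (adjusted permutation p = 0.243). With the 2 mice farthest from the median of the first chain left out, the 15 relations that passed kept their sign and passed again, and the liver pair of Col1a1 and Col18a1 had r = 0.266 (permutation p = 0.0662).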

How the data were processed

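Poly(A) RNA of islets and liver was sequenced by the authors on a BGISEQ-500, and the submitters' processing notes name HISAT2 2.0.4, Bowtie2 2.2.5, RSEM 1.1.12, DESeq2 and the build GRCm38.p5. The authors deposited FPKM per gene and library with 2 decimals, together with group means, their log2 ratios and DEGseq p-values and q-values, none of which was used here. Of 21990 genes, 1835 had no values. Counts were not part of the table, so limma was used in place of a count test.

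FPKM were transformed to log2(FPKM + 1) and fitted by limma 3.58.1 in R 4.3.3 with trended prior variances and robust estimation, within each tissue and week (genes at 1 FPKM or more in at least 4 of 8 libraries), within a tissue (4 of 48 libraries, 1 mean per diet and week) and over both tissues (4 of 96). P-values were adjusted over all genes by the Benjamini-Hochberg method, and genes were called at an adjusted p under 0.05. The scale understates fold changes of low chains. The pipeline was tested on simulated data. Correlations were tested by 100000 permutations within diet and week in Python 3.11.15. Mitochondrial matches were found with blastn 2.17.0.

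Members and lists were chosen with earlier results of these data known. Values by sample are given for chains past the test and for the major chains of types I, III, IV, V, VI, XV and XVIII, and for each pathway list at most 3 genes per direction are named. The result of 1 gene of these lists is not reported here. Each mouse gave an islet and a liver library under 1 number. The deviations of the 2 libraries of a mouse from their group means, over 9024 genes, had a median correlation of 0.183 (-0.133 to 0.334, 48 mice). Alternatives were another pseudocount (0.1), no filter, median ratio scaling, a minimum log2 difference of 1, no trend, islets without Ins1 and Ins2, all weeks in 1 fit, a mouse term and leaving out each mouse. Leaving out 5 mice or a week was added after the data were seen.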

Additional observations from a re-analysis of the deposited data

Results flagged for a closer look

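Groups of 4 mice were searched for a value apart from the others by Dixon's ratio. They were the CD and HFD groups of chains called at a week, and so were chosen by a test on the same values. Chance gives about 1 in 20 in groups not chosen in this way, so that rate is no fair comparison. The highest or lowest value stood apart in 3 of 60 groups tested. These were Col6a3 in HFD islets of week 8, where HFD212 had 1.41 FPKM, Col13a1 in CD islets of week 16, where CD407 had 4.58, and Col4a2 in CD livers of week 12, where CD306 had 3.03.

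The mean diet effect differed between liver and islets for 16 chains, each more positive in liver, by limma over both tissues. On the log2(FPKM + 1) scale, the differences for the fibrillar chains were 1.71 for Col1a1, 1.45 for Col1a2, 1.38 for Col3a1, 0.57 for Col5a1, 0.55 for Col27a1 and 0.44 for Col5a2. They were 1.01 for Col14a1, 0.47 for Col9a2, 0.43 for Col12a1, 0.34 for Col16a1 and 0.14 for Col19a1 among the fibril-associated chains. Col9a2 was at most 0.05 FPKM in liver, and the value of Col19a1 is in doubt. The type VI chains had 0.95 for Col6a3, 0.55 for Col6a1 and 0.48 for Col6a2, and the type IV chains had 0.75 for Col4a1 and 0.56 for Col4a2. The diet effect on Col9a2 in islets differed between early and late weeks by 0.37 (adjusted p = 0.034, limma).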

How the results depend on the processing

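A minimum log2 difference of 1 lowered the number of chains called to 0 in islets for the mean diet effect, the early minus late contrast, the CD slope and weeks 8, 12, 16, 20 and 24, and to 3 for the liver mean, 0 for the liver slope, 4 for liver week 16, 4 for liver minus islets and 10 for islets minus liver. Without a filter on low FPKM, the islet counts were 15 for the mean, 2 for early minus late, 0 (week 8), 4 (week 12) and 8 (week 16), and others were 6 for the liver slope, 1 at liver week 8, 0 at liver week 20 and 36 for islets minus liver. Median ratio scaling gave 8 for the islet mean and 0 at islet week 8. Without Ins1 and Ins2 in the total, islets gave 13 for the mean (7 higher, 6 lower), 0 in week 8, 8 in week 12 (7 higher) and 10 in week 16 (7 higher), with shifts of the median gene of 0.15, 0.46 and 0.34 in the mean and weeks 12 and 16, and Col13a1 turned to 0.0078. All weeks in 1 fit gave 2 (islets, week 8), 3 (islets, week 20), 1 (liver, week 4), 11 (liver, week 12), 3 (liver, week 20) and 3 (liver, week 24). Early minus late in islets was 4 without week 12 and 0 without week 4, and the CD islet slope was 9 without week 4, where Col16a1 turned to 0.0017.

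With 1 mouse left out, the islet counts ranged from 5 to 7 for the mean, 0 to 3 for early minus late (3 without HFD418), 13 to 16 for the slope, 0 to 1 (week 8), 1 to 4 (week 12, 4 without CD308), 2 to 4 (week 16, 4 without CD403 or HFD418), 0 to 3 (week 20, 3 without HFD511) and 4 to 9 (week 24). In liver they ranged from 13 to 15 for the mean, 1 to 4 for the slope (1 without CD606, 4 without CD501 or CD608), 0 to 7 (week 8, 7 without HFD217), 2 to 11 (week 12), 9 to 11 (week 16), 0 to 3 (week 20, 3 without HFD518) and 0 to 6 (week 24, 6 without HFD611). Liver minus islets ranged from 15 to 17 and islets minus liver from 20 to 22. With the replicate block, a term for each mouse, 16 chains were called for liver minus islets and 21 for islets minus liver.

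Of the alternative values of single called chains, 4408 kept direction and call, 193 kept the direction alone and 2 were reversed. A pseudocount of 0.1 and a fit without trend moved no count of chains by over 1.5 times. Counts of chains in alternative fits are given without the share of all genes in the same fit. Causes were not tested, beyond the fewer or more genes that a filter or minimum difference admits by construction. Read counts behind the FPKM are unknown, and with 2 decimals chains under 1 FPKM carry at most 2 digits. Week, age and batch cannot be told apart, and p-values measure the spread between these mice.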
